A study of Mus musculus with 5 samples.

Results

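Genes of homologous recombination and of the Fanconi anemia pathway were examined in 6DT1 cells, a highly metastatic mouse mammary carcinoma line, after knockdown of *Arid4b*. The group was a list of 33 genes chosen by name, with earlier results of these data known. Of these, 31 were measured among the 19938 genes of the arrays, and *Xrcc2* and *Rbbp8* were not analysed here. Each of 5 lines was hybridised to 1 single-colour Affymetrix Mouse Gene 1.0 ST array. The knockdown cohort (n = 2 lines) held cells stably transduced with the *Arid4b* short hairpins H3 and H4, in which ARID4B protein by densitometry was 0.19 and 0.15 relative to the scrambled control. The control cohort (n = 3 lines) held cells with the *Arid4b* hairpin H5, in which the protein stood at 1.02, cells with a scrambled hairpin in the same pLKO.1 vector (1.00), and untransduced cells (1.09). All 4 transduced lines were selected with puromycin at 10 ug/ml and were pools of clones, and the untransduced cells were not selected. Values are log2 expression after normalization by the authors, so that a difference of 1 is a change of 2-fold. Levels of different genes come from different probes and are not compared.

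On the log2 scale, *Arid4b* itself read 6.88 (H3) and 7.35 (H4), with controls of 8.24 (H5), 8.34 (scrambled) and 8.36 (untransduced). It lay lower in both knockdown lines than in any control line, by -1.20 as a log2 fold change (standard error [SE] 0.15; limma gave an adjusted p = 0.217). The array medians were 6.24 to 6.25 in 4 lines and 6.35 in H3. Of 26 measured markers of mammary epithelial cells, fibroblasts, leukocytes and endothelium, limma called none lower and the leukocyte genes *Csf1r* and *Cd68* higher (unadjusted p under 0.05). Of all genes, 7.61% were called lower and 4.34% higher. *Cd68* lay at 10.96 in both knockdown lines and at 9.93 to 10.07 in the controls. The mean log2 level of the 7 leukocyte markers was 6.43 (H3) and 6.31 (H4) in the knockdown cohort and 6.13 to 6.17 in the controls, and no marker had a value of 0. Without *Cd68* the mean of the other 6 was 5.67 (H3) and 5.53 (H4), with controls of 5.50 to 5.52. The leukocyte marker *Ptprc* lay between 4.98 and 5.15 in all 5 lines. Of the 8 epithelial markers, *Krt8* ranged from 11.81 to 12.26 over the 5 lines and *Krt18* from 11.57 to 11.71. *Cdh1* ranged from 6.05 to 6.16 and *Epcam* from 5.61 to 5.75, both below the array medians. *Krt19* varied most, from 7.255 (H4) to 8.353 (untransduced), with an uncalled log2 fold change of -0.52. That of *Esr1* was -0.08, and *Cldn3* and *Cldn4* went the other way (0.18 and 0.12).

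Homologous recombination repairs a broken chromosome by copying the intact sister chromatid. Nucleases first trim the broken ends to single strands, BRCA2 and its partners then prepare those strands for invasion of the sister DNA, after which helicases and nucleases separate the joined molecules. The Fanconi pathway detects crosslinks between DNA strands. Its core complex attaches ubiquitin to the FANCD2 and FANCI pair, and repair then passes to nucleases and to the recombination proteins. Since a sister chromatid is needed, these genes act mainly in S and G2 phase, and several of them are inherited breast cancer genes.

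Most of the group was lower in the knockdown lines. At the threshold of the study, an unadjusted p under 0.05, limma called 23 of the 31 measured genes lower, against 7.61% of all genes, and none higher, against 4.34%. The largest differences were those of *Exo1* at -1.30, *Dna2* at -1.19, *Fanci* at -1.15, *Fancd2* at -1.14 and *Fancb* at -1.11 on the log2 scale. The median log2 fold change was -0.67 over the group and 0.03 over all genes. Both knockdown lines lay below every control line in 26 of the 31 genes, against 13.5% of all genes, and above every control line in 1, against 13.9%. None of the group passed an adjusted p under 0.05 over all genes, where their adjusted p ran from 0.285 to 0.945 from limma. Over all genes the split was 1517 lower and 866 higher, and it was 2041 (10.2%) and 509 (2.55%) with array medians subtracted, where 26 of the group were lower and none higher. After another quantile normalization it was 1332 (6.68%) and 1300 (6.52%), where 25 of the group were lower and 1 was higher. With 1 array per line, the p-values rest on differences among lines, part of which may be technical.

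**Figure D1:**
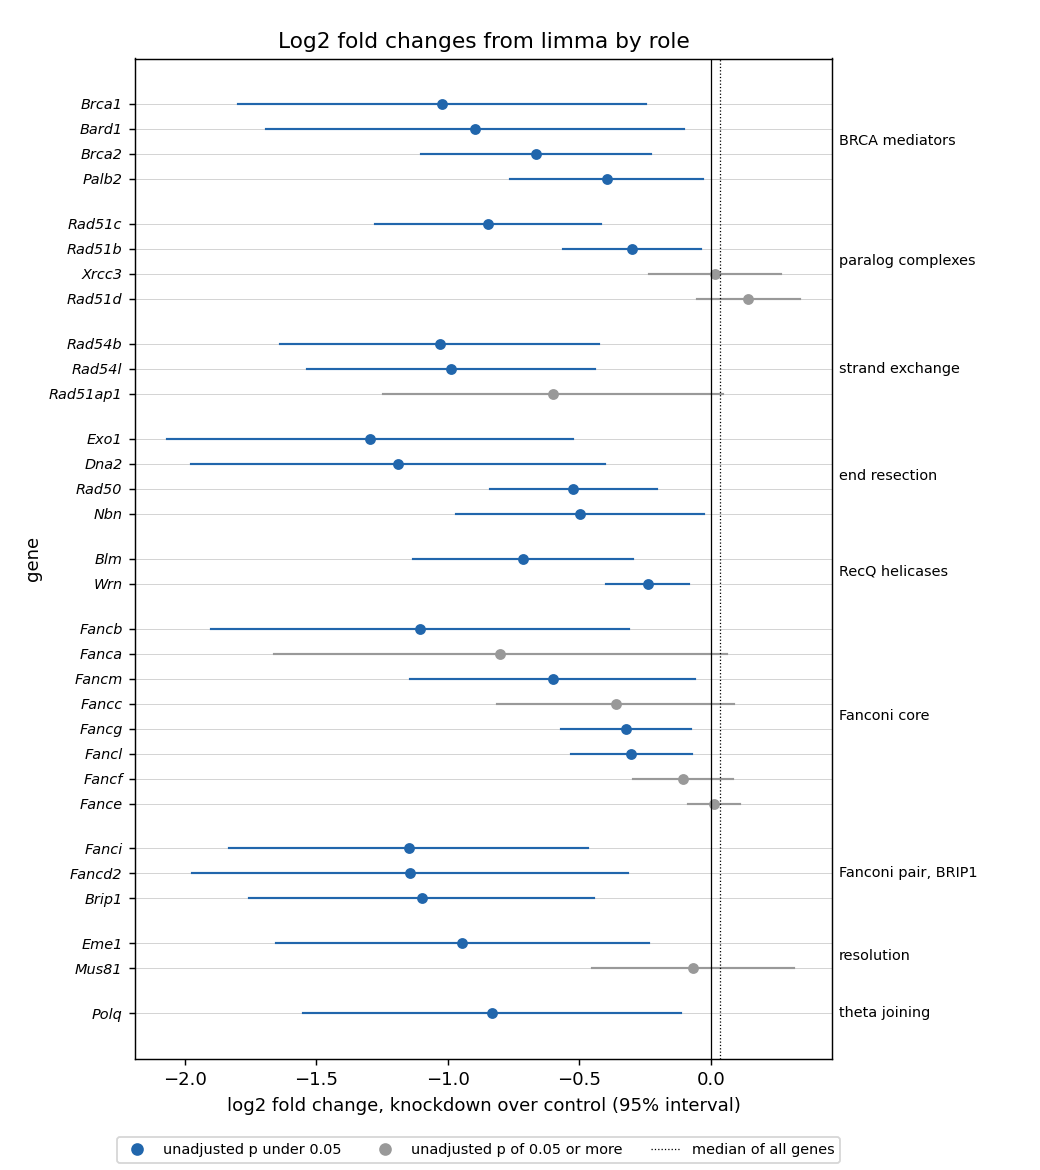
Log2 fold change of the knockdown over the control cohort (horizontal axis) for the 31 measured genes (rows, grouped by role), with 95% intervals from limma; blue marks an unadjusted p under 0.05 and the dotted line the median of all genes at 0.03. The 23 blue genes all lie to the left of 0, from *Wrn* at -0.24 to *Exo1* at -1.30.

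Because many of these genes moved together, their promoters were searched for the E2F and CHR motifs of factors that act on cell-cycle genes. The CCAAT and NRF1 motifs were searched for as well. RefSeq promoter windows of 250 bases before to 50 bases after the start (build GRCm38.p6) were given for 24 of the 31 genes. The E2F motif, taken as TTTCCCGC, TTTCGCGC, TTTGCCGC or TTTGGCGC on either strand, was found in 4 of the 24 (16.7%), against 3.48% of 15614 measured genes with a window. All 4 were among the 17 genes with a window that fell, and none was among the 7 others. The CHR motif TTTGAA was found in 4 of 24 (16.7%, against 17.3%), and in 2 where only the bases before the start were read. These 4 too were all among the 17 that fell, so that this split was not particular to the E2F motif. The motif CCAAT was found in 14 of 24 (58.3%, against 41.7%), which were 8 of the 17 that fell and 6 of the 7 others. The NRF1 motif was found in 1 (4.17%, against 1.61%). *Rad51b*, *Rad51c* and *Rad54l* had windows for more than 1 start, and no overlap between the motifs was removed. The stretches around the E2F and NRF1 matches are shown 5′ to 3′ on the strand of the gene, with the match in capitals, because they show how the motif lies at each start. They hold at most 30 bases inside the annotated bounds of the gene. A further E2F match of *Rad51c*, at base 12 of its other start, is not shown. A match describes the letters and does not show that a factor binds there.
*Bard1*, chr1:71103134-71103221, minus strand, match at bases -209 to -202 from the start: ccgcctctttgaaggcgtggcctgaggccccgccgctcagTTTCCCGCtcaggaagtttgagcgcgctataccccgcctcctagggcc
*Brca2*, chr5:150522442-150522471, plus strand, match at bases -168 to -161: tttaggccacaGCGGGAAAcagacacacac
*Fancg*, chr4:43010335-43010364, minus strand, match at bases -52 to -45: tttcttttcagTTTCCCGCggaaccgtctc
*Rad51c*, chr11:87404935-87404999, minus strand, match at bases -5 to 3: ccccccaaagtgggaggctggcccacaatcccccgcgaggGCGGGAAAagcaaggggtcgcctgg
*Dna2*, chr10:62947006-62947035, plus strand, NRF1 match at bases -13 to -4: ggcgcctgctGCGCATGCGCagcgagctgg

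All 4 mediators, which act in end trimming or on the trimmed single-stranded DNA, fell in the knockdown lines. *Brca1*, which promotes end trimming and recombination, read 7.40 (H3) and 6.62 (H4), with controls of 8.19 (H5), 7.71 (scrambled) and 8.20 (untransduced). H4 was lowest, the cohorts did not overlap, and the scrambled control was the lowest control line. The log2 fold change was -1.02 (SE 0.29; limma adjusted p = 0.344), a 2.03-fold lower level. *Bard1*, the partner of BRCA1 in a ubiquitin ligase, read 7.56 (H3) and 6.64 (H4), with controls of 8.10 (H5), 7.78 (scrambled) and 8.10 (untransduced). Its 3 probe sets had differences of -0.90, -0.65 and -0.42, of which the first, with the highest mean, was used. When the 3 were averaged (-0.655), the call of *Bard1* was lost. *Brca2*, which prepares the trimmed ends for strand invasion, read 6.81 (H3) and 6.52 (H4), with controls of 7.55 (H5), 7.10 (scrambled) and 7.34 (untransduced), a log2 fold change of -0.67 (SE 0.16). The groups were again apart, and H3 and H4 were closer to each other than in *Brca1* or *Bard1*. *Palb2*, the bridge between BRCA1 and BRCA2, had the smallest change of the 4 at -0.40. The call of *Brca1* was lost without H4 (-0.63), H5 (-0.94) or untransduced cells (-0.94), that of *Bard1* without H4 (-0.44), H5 (-0.84), the scrambled control (-1.003) or untransduced cells (-0.84), that of *Brca2* without H4 (-0.52), and that of *Palb2* without H3, H4, H5 or untransduced cells (-0.30 to -0.46).

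Of the 4 measured genes of the paralog complexes, which assist strand invasion, 2 fell and 2 did not pass the test. *Rad51c*, which takes part in both known paralog complexes, read 6.84 (H3) and 6.82 (H4), with controls of 7.84 (H5), 7.38 (scrambled) and 7.81 (untransduced). The knockdown lines were nearly equal and lay apart from all controls, with a log2 fold change of -0.85 (SE 0.16, limma adjusted p = 0.285, the lowest of the group). *Rad51b* read 6.27 (H3) and 5.98 (H4), against 6.46, 6.43 and 6.38 in H5, the scrambled control and untransduced cells, a log2 fold change of -0.30. Here H4 was the line farther from the controls. *Rad51d*, which joins RAD51C in one of the complexes, had a log2 fold change of 0.14 with a 95% interval of -0.06 to 0.34. *Xrcc3*, the partner of RAD51C in the other, had 0.01 (interval -0.24 to 0.27), with H3 above and H4 below every control line. The difference of *Rad51c* was called in all leave-one-out fits but that without H4 (-0.84), and that of *Rad51b* was lost without H5 (-0.28), the scrambled control (-0.30) or untransduced cells (-0.32). *Xrcc3* was called lower without H3 (-0.13) and higher without H4 (0.16), and *Rad51d* was called higher after another quantile normalization.

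The strand exchange partners lay lower in both knockdown lines than in the controls. *Rad54b*, a DNA translocase that acts in strand invasion, read 7.34 (H3) and 6.78 (H4), with controls of 8.15 (H5), 7.82 (scrambled) and 8.30 (untransduced), a log2 fold change of -1.03 (SE 0.23). Its relative *Rad54l* lay at 8.04 and 7.41 against 8.77, 8.57 and 8.80, a log2 fold change of -0.99 (SE 0.21). H4 minus H3 was -0.56 and -0.63, and no knockdown line reached a control line. *Rad51ap1*, which helps DNA molecules pair, had a log2 fold change of -0.60 with a 95% interval of -1.25 to 0.05, and did not pass the threshold. *Rad54l* was called lower whichever line was left out, *Rad54b* was lost without H4 (-0.75), and *Rad51ap1* was called lower without H3 (-0.97).

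All 4 measured genes of end resection in the group fell, by different amounts. *Mre11a*, a resection gene outside the group, had -0.37 and was not called. *Exo1*, an exonuclease that trims the ends over long distances, read 8.63 (H3) and 7.93 (H4), with controls of 9.66 (H5), 9.21 (scrambled) and 9.85 (untransduced). The cohorts were apart by 0.58, the widest gap in the group, and the log2 fold change was -1.30 (SE 0.29, limma adjusted p = 0.297), a 2.45-fold lower level. *Dna2*, the nuclease and helicase of the other long-range route, read 7.47 (H3) and 7.10 (H4), with controls of 8.63 (H5), 7.96 (scrambled) and 8.82 (untransduced). Its control lines spread widely (SD 0.45), the scrambled control being lowest, and the log2 fold change was -1.19 (SE 0.30). *Rad50* and *Nbn*, subunits of the complex that senses the break and starts the trimming, had smaller changes of -0.52 and -0.50. In contrast to the nucleases, H3 was the lower knockdown line for both, with *Rad50* at 8.93 in H3 and 9.22 in H4 against 9.46 to 9.68 in the controls. A second probe set of *Nbn* had a difference of 0.20, the opposite direction, and the call was lost when its probe sets were averaged. The call of *Exo1* was lost without H4 (-0.94), that of *Dna2* without H3 (-1.37) or H4 (-1.003), that of *Rad50* without H3 (-0.38), and that of *Nbn* without H3 (-0.41), H4 (-0.58) or H5 (-0.52).

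Both RecQ helicases of the group fell, and by unequal amounts. Helicases of the same family outside the group, *Recql* (-0.32), *Recql4* (-0.32) and *Recql5* (-0.04), were not called. *Blm*, which undoes joined molecules without exchange, read 7.67 (H3) and 7.28 (H4), with controls of 8.17 (H5), 8.04 (scrambled) and 8.37 (untransduced), a log2 fold change of -0.72 (SE 0.16). *Wrn* read 7.58 (H3) and 7.60 (H4), against 7.91, 7.80 and 7.77 in the same controls, a log2 fold change of -0.24 (SE 0.06). For *Wrn* the change was small, H3 and H4 were alike within 0.02, and the control lines were close together. The calls were lost without H4 for *Blm* (-0.52), and without H3 (-0.23) or H4 (-0.25) for *Wrn*.

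The Fanconi core was the least uniform set. Of its 8 genes, which encode the ubiquitin ligase and its anchor, 4 fell (*Fancb*, *Fancm*, *Fancg* and *Fancl*) and 4 did not pass the test (*Fanca*, *Fancc*, *Fancf* and *Fance*). *Fancb*, a subunit of the catalytic module, read 6.97 (H3) and 6.70 (H4), with controls of 8.03 (H5), 7.42 (scrambled) and 8.36 (untransduced), a log2 fold change of -1.11 (SE 0.30). *Fanca* read 7.66 (H3) and 7.18 (H4), against 8.27, 7.72 and 8.67 in the same controls. H3 was only 0.06 below the scrambled control there, and the log2 fold change of -0.80 had a 95% interval of -1.66 to 0.06. *Fancm*, the translocase that anchors the core on DNA, had -0.60 and was lower in H3 (6.42) than in H4 (6.95). *Fancl*, the ligase subunit, had -0.30 and was also lower in H3. *Fancg* had -0.32. *Fance* read 8.99 in each of the 3 control lines and about 0.01 more in both knockdown lines, a log2 fold change of 0.01 with an interval of -0.09 to 0.11, and *Fancf* had -0.11 (interval -0.30 to 0.08). Values equal to 5 decimals in at least 2 lines were found in 4 of the 31 genes, against 38.4% of all genes. These were *Fance*, *Fancf*, *Rad51d* and *Xrcc3*, none of which passed the test. An unmoderated equal-variance test called *Fance* higher, with a spread between the control lines of 0.001. The call of *Fancb* was lost without H3 (-1.24), H4 (-0.97) or H5 (-1.06). That of *Fancg* was lost without H3, H4 or untransduced cells (-0.27 to -0.38), and those of *Fancl* and *Fancm* without H3, H5 or untransduced cells (-0.19 to -0.30 and -0.33 to -0.55). *Fanca* and *Fancc* were called lower without the scrambled control (-1.05 and -0.49).

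The pair that the core modifies fell together with *Brip1*. *Fancd2* read 8.35 (H3) and 7.36 (H4), with controls of 9.07 (H5), 8.84 (scrambled) and 9.09 (untransduced), a log2 fold change of -1.14 (SE 0.31). *Fanci* lay at 7.54 and 6.76 against 8.40, 8.10 and 8.39, a log2 fold change of -1.15 (SE 0.26). *Brip1*, a helicase that binds BRCA1, lay at 7.45 and 6.72 against 8.30, 7.97 and 8.27, a log2 fold change of -1.10 (SE 0.25, limma adjusted p = 0.297). In these 3 genes the order of the lines was the same at its lower end, with H4 lowest, H3 next, then the scrambled control, and the remaining controls above. *Fanci* and *Brip1* were called lower whichever line was left out, and *Fancd2* was lost without H5 (-1.11) or untransduced cells (-1.10).

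Of the pair that encodes a nuclease cutting joined molecules, 1 gene fell. *Eme1*, the regulatory subunit, read 7.93 (H3) and 7.14 (H4), with controls of 8.58 (H5), 8.25 (scrambled) and 8.60 (untransduced), a log2 fold change of -0.94 (SE 0.27). *Mus81*, the catalytic subunit, read 8.09 (H3) and 7.65 (H4), against 7.94, 7.88 and 7.997 in the same controls. H3 was above and H4 below all control lines, and the log2 fold change of -0.07 had an interval of -0.45 to 0.32. *Polq*, the polymerase of an alternative, error-prone end joining, read 6.33 (H3) and 6.12 (H4), with controls of 7.23 (H5), 6.56 (scrambled) and 7.38 (untransduced), a log2 fold change of -0.83 (SE 0.27). The cohorts were apart for *Polq* and *Eme1* and overlapped for *Mus81*. The call of *Eme1* was lost without H4 (-0.55), H5 (-0.89) or untransduced cells (-0.88), and that of *Polq* without any line but the scrambled control (-0.67 to -0.93). *Mus81* was called lower without H3 (-0.29) and was at 0.16, uncalled, without H4.

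**Figure D2:**
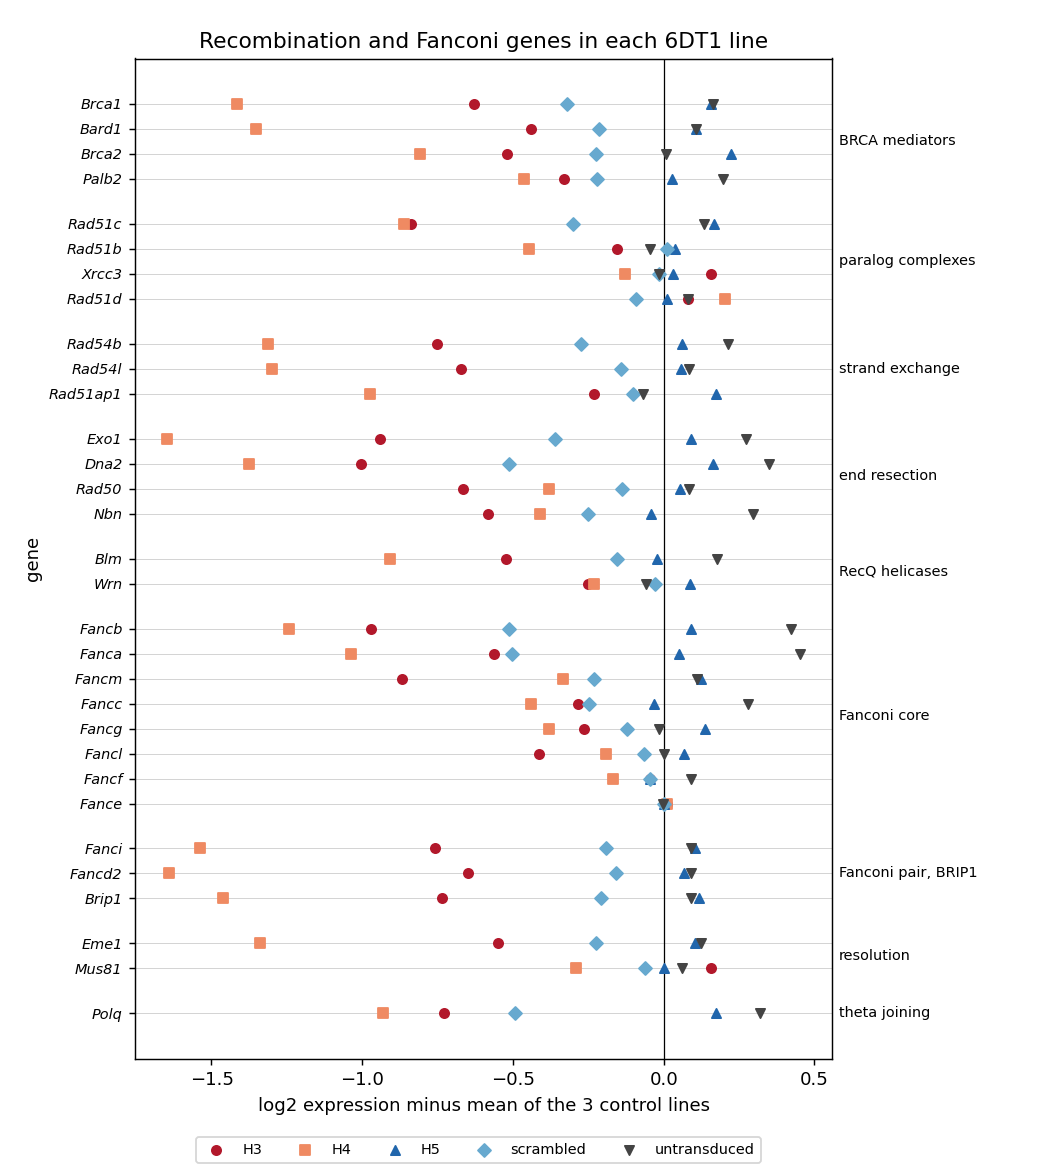
Log2 expression of each of the 31 genes (rows, grouped by role) minus the mean of its 3 control lines (horizontal axis), with 1 point per line and array. H4 and H3 lie to the left in most rows, and the scrambled control is the leftmost control line in 26 of 31.

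The lines differed within each cohort in an order that recurred across the group. H4 lay below H3 in 25 of the 31 genes, against 58.9% of all genes. The median difference from the control mean was -0.55 in H3, from -1.003 (*Dna2*) to 0.16 (*Xrcc3*), and -0.86 in H4, from -1.65 (*Exo1*) to 0.20 (*Rad51d*). The 6 genes in which H4 was not below H3, named after their values had been seen, were *Rad50*, *Nbn*, *Fancm*, *Fancl*, *Wrn* and *Rad51d*. Of these, *Fancm* had the widest gap, with H4 above H3 by 0.53. On the other side, H4 minus H3 was -0.99 for *Fancd2*, -0.91 for *Bard1*, -0.79 for *Eme1* and -0.79 for *Brca1*. Among the controls, the scrambled line was lowest in 26 of 31 genes, against 34.2% of all genes, with a median of -0.21 from the control mean against 0.07 in H5 and 0.09 in untransduced cells. Its difference from that mean ran from -0.51 (*Fancb*) to 0.01 (*Rad51b*). Set against the scrambled control alone, H3 and H4 were both lower in 26 genes (83.9%, against 21.6% of all genes). The full order of H4, H3, scrambled control and then the remaining controls was found in 20 genes, against 4.58% of all genes. *Arid4b* RNA itself was lower in H3 (6.88) than in H4 (7.35), and the array median was higher in H3 (6.35) than in H4 (6.24). The order of H3 and H4 was not recounted with array medians subtracted. With 1 array per line, differences between single lines have no replicate check.

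**Figure D3:**
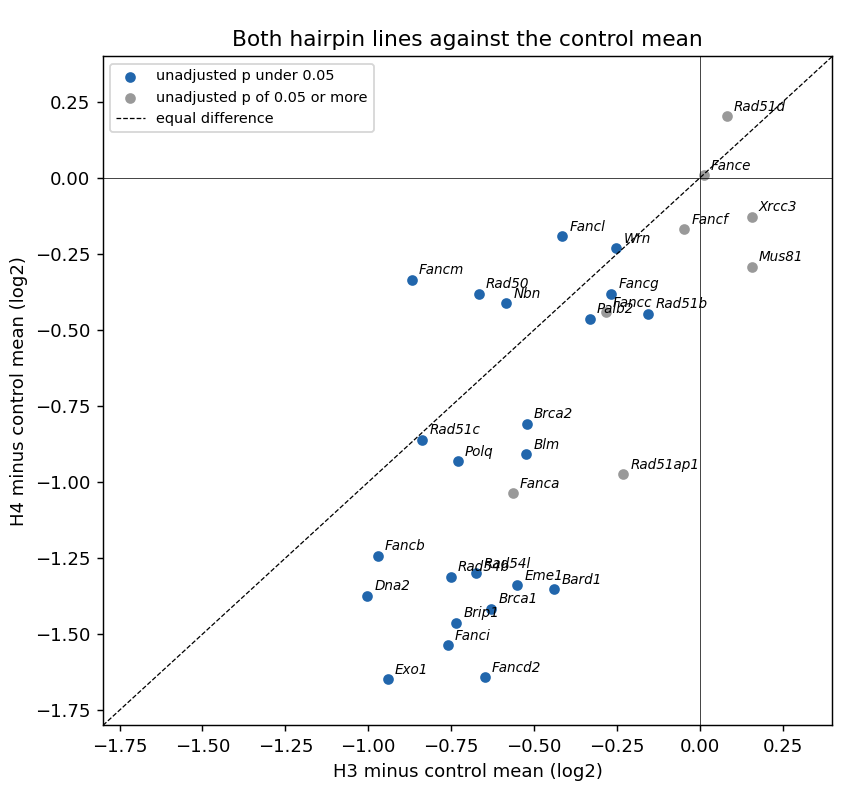
Log2 difference from the control mean in H4 (vertical axis) against that in H3 (horizontal axis) for the 31 genes; blue marks an unadjusted p under 0.05 from limma and the dashed line equal differences. *Exo1* and *Fancd2* lie far below the dashed line, and *Fancm*, *Rad50*, *Nbn* and *Fancl* lie above it.

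Other genes of recombination and of the Fanconi pathway were lower less uniformly. Of 58 listed, 55 were measured, of which 20 fell and 1 rose at the unadjusted threshold, with a median of -0.23. Of all genes, 7.61% fell and 4.34% rose. *Gen1*, a nuclease that cuts joined molecules, read 8.52 (H3) and 7.43 (H4), with controls of 9.41 (H5), 9.04 (scrambled) and 9.66 (untransduced), a log2 fold change of -1.40. *Hells*, a chromatin remodeller, had -1.20, *Parpbp*, which restrains recombination, -1.08, and *Mms22l*, which acts at stalled forks, -1.01. *Usp1*, the enzyme that removes ubiquitin from FANCD2, had -0.82, and *Rtel1*, a helicase, had -0.77. The gene that rose was *Rev1*, a polymerase that copies past damaged bases. It read 9.14 (H3) and 9.08 (H4), with controls of 8.80 (H5), 8.72 (scrambled) and 8.81 (untransduced), a log2 fold change of 0.34. For comparison, of 46 measured genes of excision repair, mismatch repair and end joining, 9 fell and 2 rose, with a median of -0.09. The shares of all genes were again 7.61% and 4.34%, and the 2 that rose were near the latter. The difference between these lists was not tested. Without H5, 11 of the other recombination genes and 5 of the excision, mismatch and end-joining genes were called lower, against 3.89% of all genes. Without untransduced cells the latter were 6, against 5.07% of all genes.

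Genes of proliferation moved with the group. Of 23 measured, which included *Mki67*, *Pcna* and *Top2a*, 21 fell (against 7.61% of all genes) and none rose (against 4.34%). The median of the 23 was -0.88. Their median difference from the control mean was -0.46 (H3), -1.18 (H4), 0.04 (H5), -0.19 (scrambled) and 0.16 (untransduced). H4 was below H3 in 22 of them, against 58.9% of all genes. The scrambled control was the lowest control in all 23, against 34.2% of all genes. *Mki67*, a marker of cycling cells, read 10.04 (H3) and 9.29 (H4), against 10.55 to 10.74 in the controls. In cultured cells, fewer cells in S and G2 phase and less RNA per cell cannot be told apart, and the part of proliferation in the lower levels of the recombination genes was not tested. Without H5, 5 of the proliferation genes were called lower (against 3.89% of all genes), and without untransduced cells 6 (against 5.07%). Without the scrambled control 15 were called lower (against 8.0%), where the main count was 21. Without H4 the median of the list was -0.46.

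**Figure D4:**
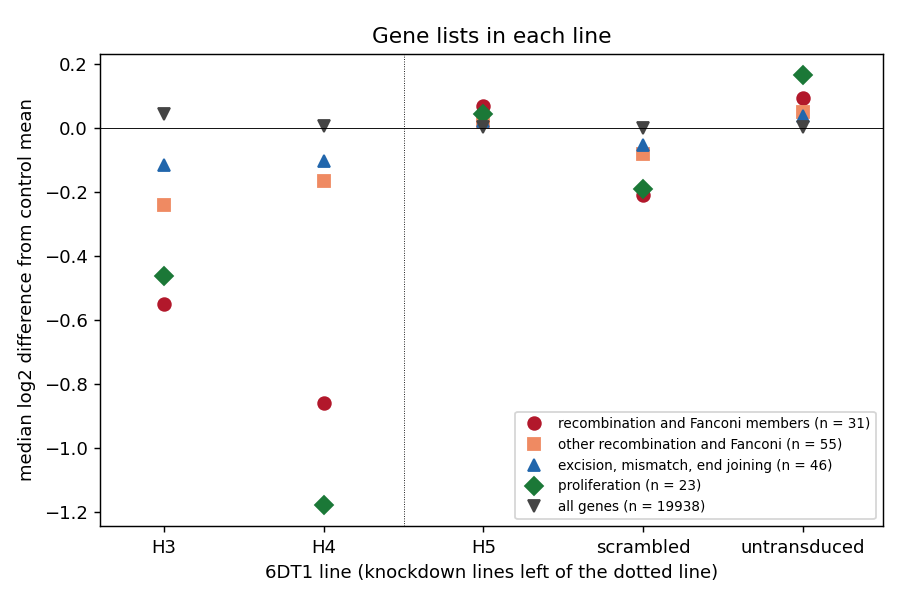
Median log2 difference from the control mean (vertical axis) of 5 gene lists in each line (horizontal axis), with 1 point per list and line. The recombination and Fanconi group lies at -0.55 in H3 and -0.86 in H4, and the proliferation list at -0.46 and -1.18.

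The number of genes of the group called lower depended on which lines were compared and on the model. Beside each count stand the shares of all genes called lower and higher under the same setting. Without H4 it was 8 (9.96% and 24.6%), without H5 12 (3.89% and 2.05%), without untransduced cells 13 (5.07% and 2.55%), without H3 16 (9.06% and 6.87%) and without the scrambled control 23 (8.0% and 3.52%). *Xrcc3*, without H4, was the single gene of the group called higher in these fits. The count was 11 by an unmoderated equal-variance test (4.19% and 2.94%), 13 with puromycin selection as a covariate (5.07% and 2.55%), 15 with array weights (4.54% and 1.92%) and 21 with probe sets averaged (7.57% and 4.36%). It was 24 by regression on ARID4B densitometry (8.24% and 4.69%), 25 by limma with trend and robust options (7.37% and 4.28%) and 25 without the lowest 1 in 3 genes (11.3% and 4.54%). The 3 genes called lower in every one of these settings were *Rad54l*, *Fanci* and *Brip1*, and *Rad51c*, *Rad54b*, *Rad50*, *Exo1* and *Blm* missed the call in 1 each.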

How the data were processed

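The authors normalized the arrays in Partek Genomics Suite, and Partek and RMA are named in the submitters' processing notes, in versions not given in the sources used here. Deposited values are log2 expression values, 1 column per line, for 35556 probe sets. RMA summarises probes into 1 value a probe set, so that neither depth nor detection is known, and precision rests on how many arrays there are. The platform annotation gave 1 symbol to 21789 probe sets, several to 1621 and left 12146 unnamed here. Symbols were updated by gene ID through the RefSeq table of GRCm38.p6 (21698 found). Each of 19938 genes was represented by its probe set of highest mean.

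The cohorts, assigned from the labelled ARID4B level, were set against each other in limma (version 3.58.1, under R 4.3.3, with lmFit, eBayes, 1.58 prior and 3 residual degrees of freedom), with p-values adjusted by Benjamini-Hochberg across all genes. The step was tested on simulated data with independent noise in each gene, which cannot test differences between lines that many genes share. The members and lists were chosen with earlier results of these data known. Values in every line are given for *Brca1*, *Brca2* and the 2 members of largest absolute log2 fold change in each role. For other recombination genes the 6 largest past the threshold and any in the other direction are named. *Mre11a*, *Recql*, *Recql4* and *Recql5* were also named, after their values had been seen. *Brip1*, *Rad50* and *Fancm* were described further after their values had been seen. Figures were drawn with matplotlib 3.10.9. Other settings tried were a plain equal-variance test per gene without moderation (ANOVA is what the study states, with no model), limma with its trend and robust options, centring arrays on their medians, a further quantile normalization, a filter that dropped the lowest 1 in 3 genes, the mean of all probe sets of a gene, weights for arrays, a regression on the protein densitometry, a term for puromycin, and fits without each line.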

Additional observations from a re-analysis of the deposited data

How the results depend on the processing

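Of the 14 alternatives, the unmoderated test, the trend and robust options and the filter of low genes kept the fold changes of the main fit. There the median could not move from -0.67. In every other alternative the median log2 fold change of the group also stayed negative. Over the fits that left out 1 line it ran from -0.86 to -0.55, the count of genes called lower from 8 to 23 and that called higher from 0 to 1, and none of the group passed the adjusted threshold. Over the same fits, 11 to 20 other recombination genes, 5 to 10 excision, mismatch and end-joining genes, 5 to 21 proliferation genes and 1184 to 6887 of all genes were called, and *Arid4b* ran from -1.44 to -0.97. *Mus81* turned to 0.16 without H4 and was -0.29 without H3. Without H3 or H4 the lone knockdown line was assumed to vary like the controls. The unmoderated equal-variance test called 11 of the group lower and 1 higher. It called 11 other recombination genes, 5 excision, mismatch and end-joining genes and 5 proliferation genes lower. Of all genes it called 1422 in either direction. Array weights called 15 of the group, 13 other recombination genes and 5 excision, mismatch and end-joining genes lower. With them 1287 of all genes were called in either direction. Puromycin as a covariate called 13 of the group and 6 proliferation genes lower, and 1519 of all genes in either direction. These were the same counts as without the untransduced line, which that fit sets aside. Another quantile normalization called 1 of the group higher, *Rad51d*. The CHR motif was found in 2 promoters when only bases before the start were read. The causes were not tested. Of 252 values for the 18 members that the naming rule selects, 196 kept their call and direction, 49 lost the call, 6 gained it and 1, that of *Mus81*, changed direction. In the settings that kept the fold changes of the main fit, direction could not change. No paired analysis was possible because the labels give no replicate numbers shared between the cohorts.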
